A study of Mus musculus with 11 samples.

Results

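The CC and CXC chemokines and their receptors were followed across 11 cap analysis of gene expression (CAGE) libraries of mouse cerebral cortex. The members were all genes of the deposited table whose symbol begins with Ccl, Cxcl, Ccr or Cxcr followed by a number and that reached 0.25 CPM (tags scaled to the total of the library) in some library. This gave 32 genes of 22377 listed, 23 of them ligands (15 CC and 8 CXC) and 9 of them receptors (6 for CC and 3 for CXC ligands). CAGE counts short tags at capped 5′ ends of transcripts, so a tag stands for a transcript start whatever the transcript's length.

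The study made a focal cortical stroke by photothrombosis, in which rose bengal (35 mg/kg) is given and a 3.5 mm circle of the left parietal region is lit at 565 nm for 30 min so that the vessels below it clot. The mice were male C57BL/6N animals of 8 to 10 or 65 to 85 weeks, and the age behind each library is not stated. One library came from naive cortex, and the other 10 were the infarcted and the non-infarcted side in 5 states. The untreated states were 7 d and 1 m after the stroke. The treated ones were 7 d and 1 m with levetiracetam (LEV) and 2 m with LEV withdrawn for 2 weeks. LEV, used against epilepsy and a ligand of SV2A on synaptic vesicles, was given in the drinking water (5 mg/mL), and the study also used electrode implants and the convulsant pentylenetetrazol without saying which libraries they concern. The labels do not say how many mice stand behind a library or whether both sides of a state came from the same mice. The tissue is labelled as whole cortex, and neuronal cortex markers were present on both sides (Slc17a7 at 481 to 1516 CPM in infarcted and 531 to 1738 CPM in non-infarcted libraries).

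Chemokines are small secreted proteins that bind G protein-coupled receptors on leukocytes and draw those cells along a concentration gradient. CC ligands such as Ccl2, Ccl7 and Ccl12 act on monocytes through Ccr2, the CC ligands Ccl3, Ccl4 and Ccl5 act on macrophages and lymphocytes, and the CXC ligands Cxcl9 and Cxcl10 act on activated T cells through Cxcr3. In the brain, microglia and astrocytes make many of them after injury, whereas Cxcl12 and Cxcl14 are made in healthy tissue as well.

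Several of the ligands described here lie near one another on the chromosome. On mouse chromosome 11 of GRCm38, Ccl2 (chr11:82035571-82037453), Ccl7 (chr11:82045712-82047525), Ccl12 (chr11:82101845-82103400) and Ccl8 (chr11:82115185-82116799) lie in this order on the plus strand. Ccl9, Ccl6, Ccl3, Ccl4 and Ccl5 form a further group on that chromosome, from 83525778 (the start of Ccl5) to 83664683 (the end of Ccl4). RefSeq promoter windows of GRCm38.p6 matched 23 of the 32 members, with 27 windows, and among those not matched were Cxcl16, Ccl2, Ccl4, Ccl5, Cxcl5, Ccl24, Ccl7 and Ccr7. Printed here are the bases just before the start of Cxcl10 (chr5:92348890-92349139, minus strand), which held the most motif matches of the 27 windows, of the neighbours Ccl12 (chr11:82101725-82101844, plus strand) and Ccl8 (chr11:82115065-82115184, plus strand), whose values at 7 d and 1 m are set side by side, and of Ccl9 (chr11:83578637-83578756, minus strand). Each is written 5′ to 3′ on the gene's strand and ends at the base before the start, and capitals mark matches to the NF-kB motif, the interferon-response (IRF) motif or a TATA box.

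Cxcl10: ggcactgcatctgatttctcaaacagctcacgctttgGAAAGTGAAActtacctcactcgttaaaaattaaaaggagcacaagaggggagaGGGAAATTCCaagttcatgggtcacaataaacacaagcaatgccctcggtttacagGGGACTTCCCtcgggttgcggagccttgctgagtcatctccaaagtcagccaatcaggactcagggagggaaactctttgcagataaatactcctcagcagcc
Ccl12: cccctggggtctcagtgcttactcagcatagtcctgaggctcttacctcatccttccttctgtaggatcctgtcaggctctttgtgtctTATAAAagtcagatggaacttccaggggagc
Ccl8: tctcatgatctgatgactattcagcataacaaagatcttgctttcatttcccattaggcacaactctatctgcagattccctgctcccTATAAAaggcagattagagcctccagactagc
Ccl9: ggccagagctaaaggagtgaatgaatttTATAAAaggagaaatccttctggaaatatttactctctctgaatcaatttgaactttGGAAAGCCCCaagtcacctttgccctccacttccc

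In Cxcl10 the capitals are an IRF match beginning at position -213 and NF-kB matches beginning at -159 and -103, counted back from the start at -1. In Ccl12 and Ccl8 the single match is a TATA box beginning at -31 and -32. In Ccl9 they are a TATAAA at -92 and an NF-kB match at -35. Over the 250 bases before the start, the NF-kB motif was in 4 of the 27 member windows against 3.90% of all 32851 windows, and the IRF motif (GAAANNGAAA) was in 3 against 2.98%. A TATA box (TATAAA, plus strand) was in 7 against 7.59%, the STAT-binding GAS motif (TTCNNNGAA) in 3 against 7.02%, and the AP-1 motif (TGANTCA) in 3 against 6.75%. All but the TATA box were sought on both strands, and a match is a description of the letters, not of a bound site.

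Library totals ran from 12928291 to 21000367 tags, so that 3 tags, taken as the floor for a ratio, correspond to 0.143 to 0.232 CPM. Of the 32 members, 14 had a mean of at least 1 CPM over the 10 stroke libraries and entered the side test. The other 18 lay below that mean, and 10 of them never reached 1 CPM in any library. With 1 library in each group, the 5 states served as the repeats for the comparison of sides, while tests of time and LEV had 1 residual degree of freedom and took most of their spread from other genes. P-values measure the spread between these libraries, which may be technical. The naive and 1 m libraries did not overlap the 7 d and 2 m libraries in 1772 of 16221 genes (10.9%), as for Stxbp3 at 17.9 to 22.3 against 2.82 to 6.73 CPM. None of the 32 members was among those genes. That count pooled both sides and took only genes with a mean of at least 1 CPM. A member that differs between sides could hardly meet it, so it does not show whether the members share that split. Ccr9 had the same tag count as the long noncoding gene Gm17200 on the same strand in all 11 libraries, so its level cannot be assigned to either.

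Of the 4 members with the highest means, Cxcl12 alone passed the side test as higher in infarcted cortex. In what follows, 5 values are given in the order 7 d, 7 d LEV, 1 m, 1 m LEV and 2 m. Cxcl12, the ligand of Cxcr4 that holds progenitors and lymphocytes in place, was at 115, 116, 98.5, 40.4 and 77.8 CPM on the infarcted side and at 51.8, 54.5, 48.2, 35.5 and 43.4 CPM on the other, with 39.3 CPM in naive cortex. Infarcted values were higher in each state, and that of 1 m LEV lay within the range of the non-infarcted libraries. The mean difference was 0.85 ± 0.13 (SE, 5 states) in log2(CPM + 1), with a limma adjusted p of 0.0108.

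Cxcl14, an epithelial and neuronal chemokine, was at 192 to 222 CPM (median 201) in infarcted and 204 to 251 CPM (median 225) in non-infarcted libraries, against 206 CPM in naive cortex. It was lower on the infarcted side in 5 of 5 states, but the difference of -0.16 ± 0.06 did not pass (adjusted p = 0.13). Ccl27a, a skin-homing ligand whose region of chromosome 4 holds near-identical gene copies so that its tags may be split, was at 121, 108, 172, 146 and 116 CPM on the infarcted and 154, 138, 182, 176 and 161 CPM on the other side. It was lower in 5 of 5 states, by -0.30 ± 0.07 with an adjusted p of 0.0302, and it was the 1 member called lower, where 0.789% of 16229 genes were. Ccl25, a thymic and intestinal ligand, was at 16.7 to 22.6 and 16.8 to 23.1 CPM on the 2 sides, and its difference was -0.05 ± 0.07 (adjusted p = 0.723).

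Of the CC ligands Ccl2, Ccl7, Ccl8 and Ccl12, near one another on chromosome 11, Ccl2, Ccl8 and Ccl12 were called higher on the infarcted side, and Ccl7 lay below the expression limit. In all, 11 members were called higher, where 6.21% of all genes tested were, and the median difference over the 14 members tested was 1.44 against 0.01 over all genes. The limit of 1 CPM was a mean over both sides. Ccl3, Ccl4 and Cxcl10, at most 0.372, 0.429 and 0.728 CPM on the non-infarcted side, met it only through infarcted libraries. For them the limit itself favoured a higher call, which adds to the count and the median. Because these are bulk libraries, more cells of a type and more RNA per cell cannot be told apart. Ccl8, a CC ligand that in the mouse acts through Ccr8, was at 30.9, 27.6, 89.0, 8.90 and 14.9 CPM in infarcted cortex and at 3.50, 2.87, 4.28, 5.05 and 1.94 CPM on the other side. The lowest infarcted value stood above the highest non-infarcted one, and naive cortex had 2.71 CPM. Its difference, 2.59 ± 0.37 with an adjusted p of 0.0101, was the largest of the 14 on the log2(CPM + 1) scale, which shrinks low genes. In edgeR without the expression limit, Ccl4 (3.55) and Ccl3 (3.41) exceeded Ccl8 (2.89).

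Ccl12, a mouse ligand of Ccr2, was at 23.0, 25, 6.75, 4.16 and 2.96 CPM on the infarcted and 3.67, 3.03, 2.69, 2.33 and 1.52 CPM on the non-infarcted side. The 2 m infarcted library fell inside the range of the non-infarcted ones, and the mean difference was 1.48 ± 0.30 (adjusted p = 0.0249). Ccl2, the main monocyte attractant, was at 9.40, 16.2, 5.17, 2.29 and 11.4 CPM on the infarcted side and at 0.723, 0.797, 1.45, 0.952 and 8.74 CPM on the other. The non-infarcted library of 2 m stood apart from the other 4, and the mean difference was 1.66 ± 0.38 (adjusted p = 0.0342). Ccl7, its neighbour and also a ligand of Ccr2, followed at low counts, with 14, 20, 9, 2 and 17 tags on the infarcted side against 4, 1, 3, 1 and 12.

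**Figure D1:**
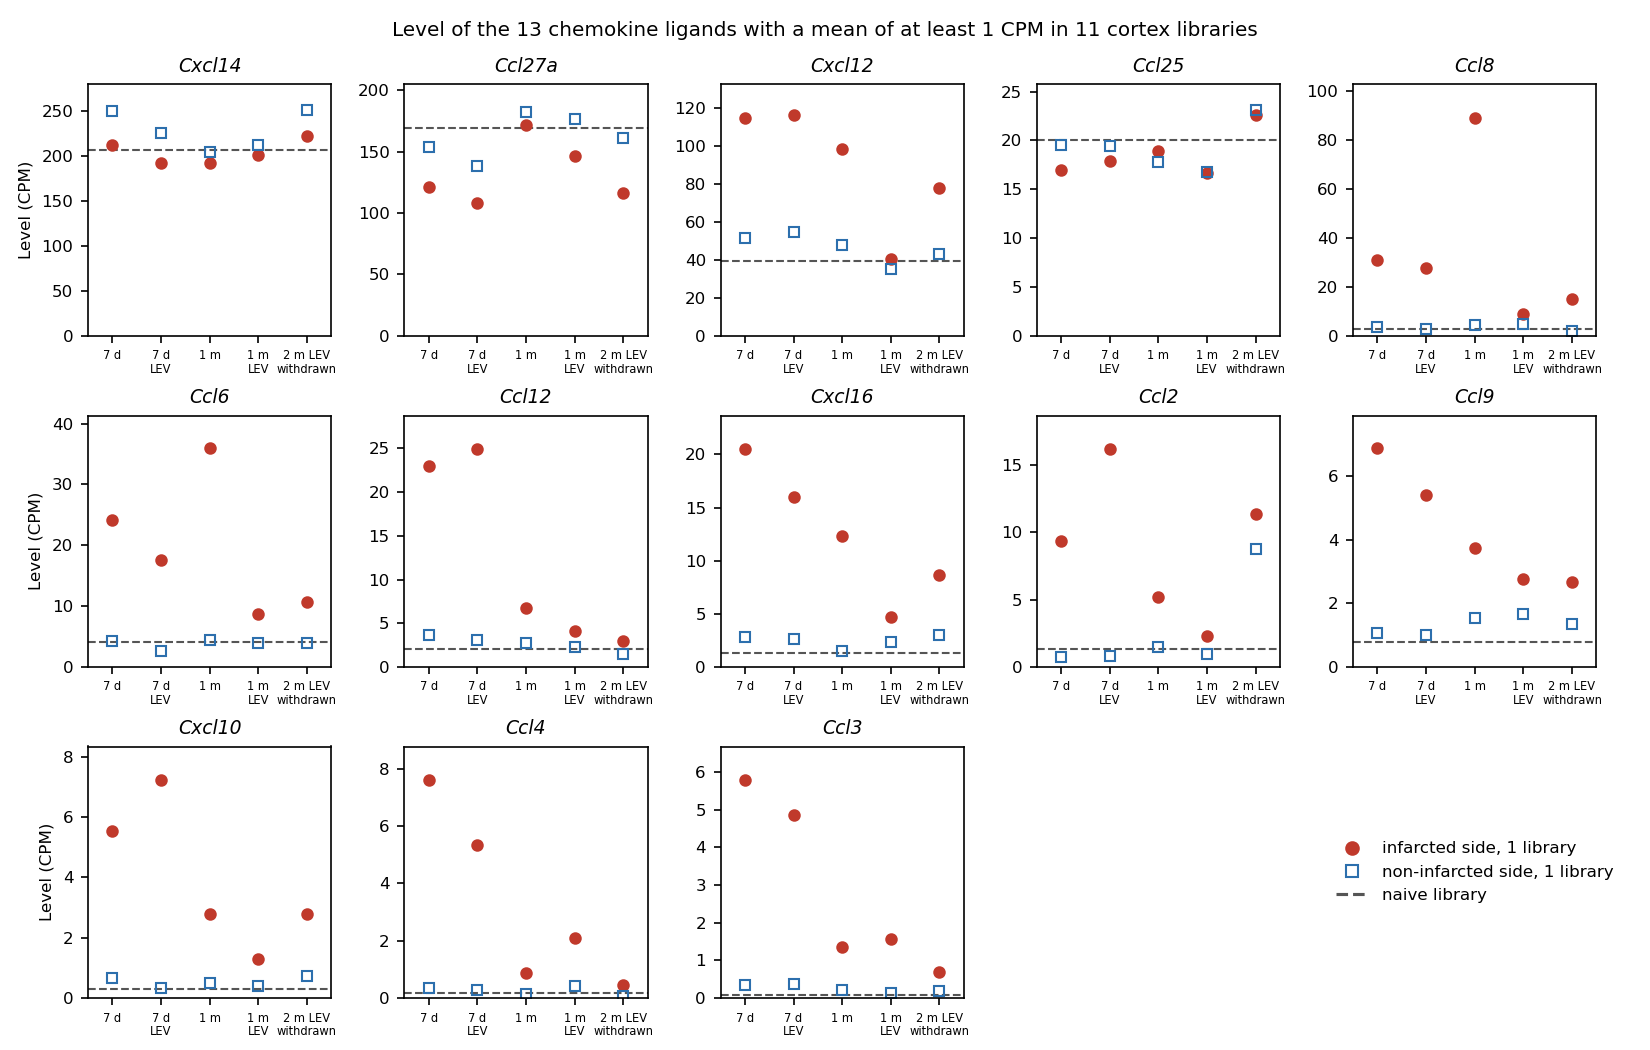
Level in CPM (vertical axes, each from 0) of the 13 chemokine ligands with a mean of at least 1 CPM, for the infarcted (filled circles) and non-infarcted side (open squares) in 5 states, 1 library a point, with the naive library as a dashed line. Infarcted Ccl8 reaches 89.0 CPM in the 1 m library against 8.90 CPM in the one of 1 m LEV, and Ccl2 stands at 8.74 CPM on the non-infarcted side at 2 m.

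The inflammatory CC ligands of macrophages showed the same order of sides. Ccl6, a rodent CC ligand made by myeloid cells, was at 24.2, 17.6, 35.9, 8.75 and 10.7 CPM in infarcted and 4.28, 2.66, 4.36, 3.95 and 3.95 CPM in non-infarcted cortex. Every infarcted library lay above every non-infarcted one, the difference was 1.92 ± 0.24, and its adjusted p of 0.00695 was the smallest among the members. Ccl9, its close relative, ran from 2.68 to 6.87 CPM against 1.01 to 1.67 CPM (1.13 ± 0.21, adjusted p = 0.0193). Ccl3, an attractant of macrophages through Ccr1 and related receptors, was at 5.79, 4.87, 1.36, 1.56 and 0.684 CPM on the infarcted side and at most 0.372 CPM on the other (1.42 ± 0.26, adjusted p = 0.0174). Ccl4, a macrophage and T-cell attractant, was at 7.59, 5.33, 0.862, 2.08 and 0.456 CPM against at most 0.429 CPM (1.46 ± 0.32, adjusted p = 0.0293). The sides did not overlap in any of Ccl6, Ccl9, Ccl3 and Ccl4.

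Ccl5, an attractant of T cells and macrophages, lay below the expression limit, with 33, 22, 38, 21 and 23 tags on the infarcted side against 8, 3, 1, 8 and 1, and 0 in naive cortex. At 1 m this was 2.73 against 0.0726 CPM. In the quasi-likelihood test of edgeR on recovered tags, run without the expression limit, Ccl5 was higher on the infarcted side by 2.74 on the log2 scale (adjusted p = 0.00497).

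Among CXC ligands, the interferon-induced Cxcl10 was at 5.55, 7.24, 2.80, 1.30 and 2.79 CPM in infarcted and 0.667, 0.319, 0.508, 0.381 and 0.728 CPM in non-infarcted cortex. The ranges did not overlap, and the difference was 1.56 ± 0.25 (adjusted p = 0.0121). Its relative Cxcl9, which shares the receptor Cxcr3, had 4, 22, 12, 3 and 4 tags against 1, 2, 0, 1 and 1. Cxcl16, a transmembrane ligand of Cxcr6 that also takes up oxidised lipids, was at 20.6, 16.0, 12.4, 4.69 and 8.61 CPM against 2.78, 2.60, 1.45, 2.38 and 2.97 CPM. Its sides did not overlap and differed by 1.84 ± 0.25 (adjusted p = 0.00861).

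Cxcl13, which draws B cells into follicles, had 22, 25, 9, 9 and 23 tags on the infarcted side and 1, 0, 0, 1 and 3 on the other. The neutrophil attractants were low: Cxcl5 had 36, 18, 16, 38 and 22 tags against 3, 8, 0, 11 and 10, and Cxcl1 had 16, 7, 13, 7 and 6 against 3, 1, 3, 1 and 6. In edgeR without the limit, Cxcl13 (4.01, adjusted p = 0.00349), Cxcl9 (2.97, adjusted p = 0.0227) and Cxcl5 (2.07, adjusted p = 0.0217) were higher on the infarcted side, while Cxcl1 (1.78, adjusted p = 0.0758) and Ccl7 (1.60, adjusted p = 0.0983) did not pass. Ccl24 and Ccl19, an eosinophil attractant and a lymphoid-homing ligand, each reached 1 CPM in some library and lay at 0.243 to 1.31 and 0.406 to 1.08 CPM over the 10 stroke libraries with overlapping sides.

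The receptors described here were at few tags. Cxcr4, the receptor of Cxcl12, had 24, 22, 10, 13 and 4 tags against 4, 6, 0, 4 and 0 (2.48 in edgeR without the limit, adjusted p = 0.0149). The monocyte receptor Ccr2 never exceeded 0.456 CPM, with 5, 4, 6, 3 and 8 tags against 8, 0, 1, 2 and 1, and its difference of 1.25 did not pass (adjusted p = 0.339). Ccr1, a receptor of Ccl3 and Ccl5, had 10, 9, 1, 4 and 2 tags against 5, 1, 1, 0 and 1. Ccr7, Ccr9, Cxcr3, Ccr6 and Cxcr6 had 12 to 43 tags each over all 11 libraries, and none passed in edgeR without the limit. Among low ligands, Ccl17, a T-cell attractant, had 14, 3, 3, 2 and 1 tags against 10, 8, 2, 12 and 1, and the lymphoid ligand Ccl21a had 10 of its 18 tags in the 1 m infarcted library.

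Over all 32 members, edgeR without the expression limit called 16 higher, where it called 5.32% of 22083 genes higher. In 13 members every infarcted library lay above every non-infarcted one, against 3.07% of the 20923 genes with 0.25 CPM in some library, and in none did every infarcted library lie below. Of these 13, Cxcl13, Cxcl9, Ccl21a and Cxcr3 reached 0.25 CPM only in infarcted libraries. Their non-infarcted values were at most 0.182, 0.106, 0.0532 and 0.0476 CPM. The floor that admitted them thus favoured this order of sides, so for them it is no separate result. Ccl21a and Cxcr3 also rest on 18 and 19 tags in all. The limma count depended on single states: 2 members stayed called without 7 d, 5 without 7 d LEV and 1 without 1 m, whereas 12 were called without 1 m LEV and 13 without 2 m. Ccl6 was called in each of these, with adjusted p between 0.00131 and 0.0490, and was the 1 called without 1 m. Without a state factor, 5 were called. Calls over all genes moved alongside, from 1136 to 103 without 7 d, 161 without 7 d LEV, 71 without 1 m and 245 without a state factor, against 1174 without 1 m LEV and 1288 without 2 m.

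**Figure D2:**
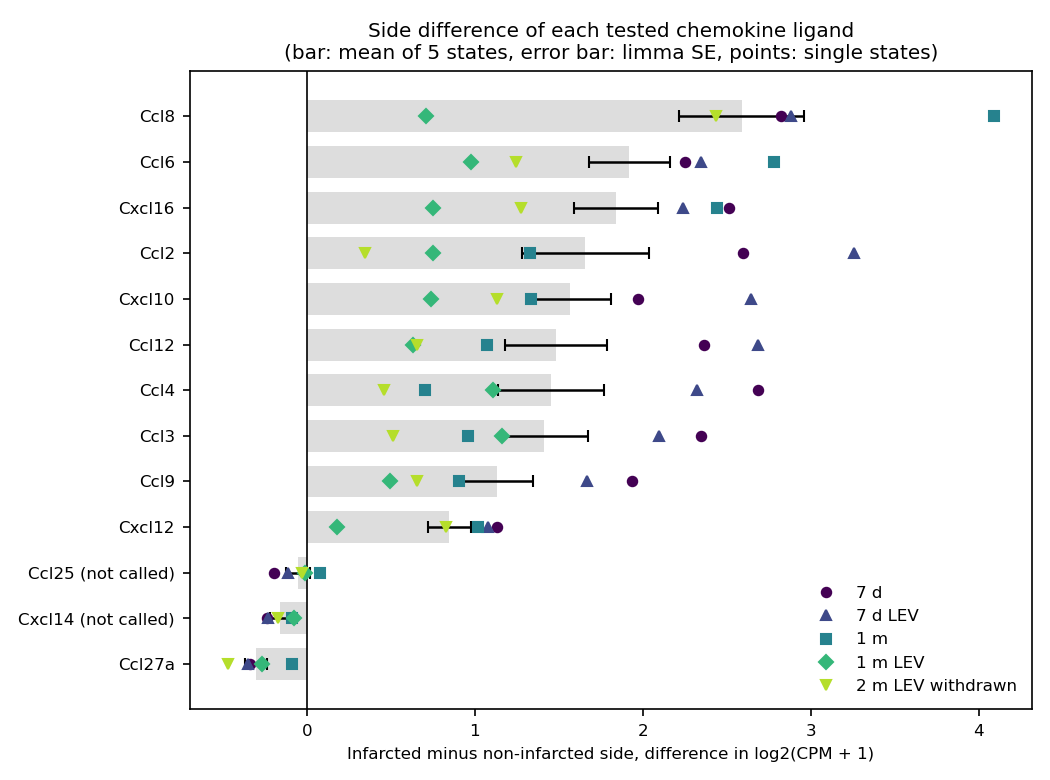
Difference between infarcted and non-infarcted side in log2(CPM + 1) for the 13 chemokine ligands tested, as the mean of 5 states (bars) with limma's SE (error bars) and the value of each state (points). Ccl8 has the largest mean (2.59) and the widest range of states, and Ccl27a is the called gene to the left of 0.

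Markers of other cells moved between the same libraries. Of 8 microglia markers, 4 were called higher and none lower, and their summed level was 541 to 1364 CPM in infarcted and 335 to 394 CPM in non-infarcted libraries. Of 10 monocyte and macrophage markers, 7 were tested and 4 called higher (sums of 48.5 to 219 against 30.1 to 41.2 CPM), with Ms4a7 at 6.92 to 69.1 against 1.60 to 3.22 CPM and Ly6c2 at no more than 0.464 CPM. Of 7 meningeal fibroblast markers, 4 were called higher (106 to 1090 against 84.7 to 153 CPM), as were 3 of 6 astrocyte markers, while 0 of 6 endothelial and 0 of 8 cortex markers were called. Of the neutrophil markers 1 of 5 tested was called, their sums overlapped (14.2 to 78.4 against 8.26 to 164 CPM), and Elane was at 0 in every infarcted library. None of the 2 T and NK cell markers tested was called (sums of 3.56 to 13.9 against 2.90 to 4.28 CPM), and B and plasma cell sums were 0.464 to 15.1 against 0.143 to 0.486 CPM. Of 6 pericyte markers, 2 were called higher (99.5 to 209 against 88.1 to 172 CPM). The part of these cells in the chemokine differences was not tested.

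Against the single naive library, no member passed on either side. On the infarcted side 0 of 16 members were called by limma (9 at an unadjusted p under 0.05) and 0 by edgeR, where limma called 0.00611% of 16367 genes. As single libraries, infarcted cortex at 7 d exceeded naive cortex 11.4-fold in Ccl8 (95% interval 8.09 to 16.5), 11.4-fold in Ccl12 (7.69 to 17.8) and 15.6-fold in Cxcl16 (9.62 to 27.1). Later infarcted libraries came closer to naive cortex, which had 2.71, 2.01 and 1.31 CPM of these genes. The lowest infarcted values were 8.90 (Ccl8, 1 m LEV), 2.96 (Ccl12, 2 m) and 4.69 CPM (Cxcl16, 1 m LEV), while Ccl8 was highest at 1 m without LEV (89.0 CPM). The naive library differed from the infarcted ones in other markers, with choroid plexus sums of 364 CPM against 17.4 to 33.4 CPM and blood sums of 158 against 17.8 to 81.9 CPM. Choroid plexus sums were also high in the 1 m LEV non-infarcted library, at 204 CPM. They were 14.8 to 25.8 CPM in the other non-infarcted libraries. The part of these markers was not tested. The intervals come from tag counts and cover counting error only. On the non-infarcted side 0 of 11 members were called (0 at an unadjusted p under 0.05, 0 by edgeR), where limma called 0.0% of 15983 genes. The sum of all members other than Cxcl14, Ccl27a, Ccl25 and Cxcl12 was 17.6 CPM in naive cortex, 18.9 to 27.1 CPM on the non-infarcted side and 156, 142, 173, 46.9 and 68.2 CPM on the infarcted side.

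From 7 d to 1 m, Ccl12, Ccl4, Ccl2 and 6 other members fell in infarcted cortex, while Ccl8, Ccl6, Ccl5 and Cxcl5 were among those that did not pass. Of 17 members tested, 9 were called lower, where 11.4% of all genes were, and 1 higher, where 5.27% were. The 1 m and 7 d libraries belonged to the different library sets described above. Time after stroke and library set therefore cannot be told apart in these tests. Ccl12 fell by 1.98 ± 0.19 (SE) on the log2(CPM + 1) scale (limma adjusted p = 3.45e-11), from 23.0 to 6.75 CPM without LEV and from 25 to 4.16 CPM with it. Ccl4 fell by 1.62 ± 0.24 (adjusted p = 6.94e-07) and Ccl2 by 1.57 ± 0.24 (adjusted p = 1.29e-06). Smaller falls were called for, among others, Ccl3 (-1.36), Cxcl10 (-1.31), Cxcl16 (-1.14), Cxcl12 (-0.86) and Ccl9 (-0.75), with adjusted p between 7.61e-06 and 0.00976. Ccl27a rose by 0.46 ± 0.14 (adjusted p = 0.0126).

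The pair without LEV and the pair with LEV differed for several of these genes. The level of Ccl8 at 1 m was 2.88 times that at 7 d without LEV (95% interval 2.60 to 3.20) and 0.323 times with LEV (0.269 to 0.385), so the mean of the pairs was -0.02 ± 0.27 (adjusted p = 0.978). The ratios of Ccl6 were 1.49 (1.30 to 1.70) and 0.497 (0.409 to 0.601), with a mean of -0.19 (adjusted p = 0.586). The fall of Cxcl12 stood mainly in the LEV pair, at 0.857 (0.799 to 0.92) without and 0.347 (0.319 to 0.377) with LEV, and with LEV left out of the model neither Cxcl12 nor Ccl27a passed. For Ccl4 the ratio was 0.113 (0.0571 to 0.205) without and 0.391 (0.262 to 0.572) with LEV. Ccl5 (0.10, adjusted p = 0.831), Cxcl5 (-0.01, adjusted p = 0.988) and Cxcr4 (-0.47, adjusted p = 0.179) did not pass.

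**Figure D3:**
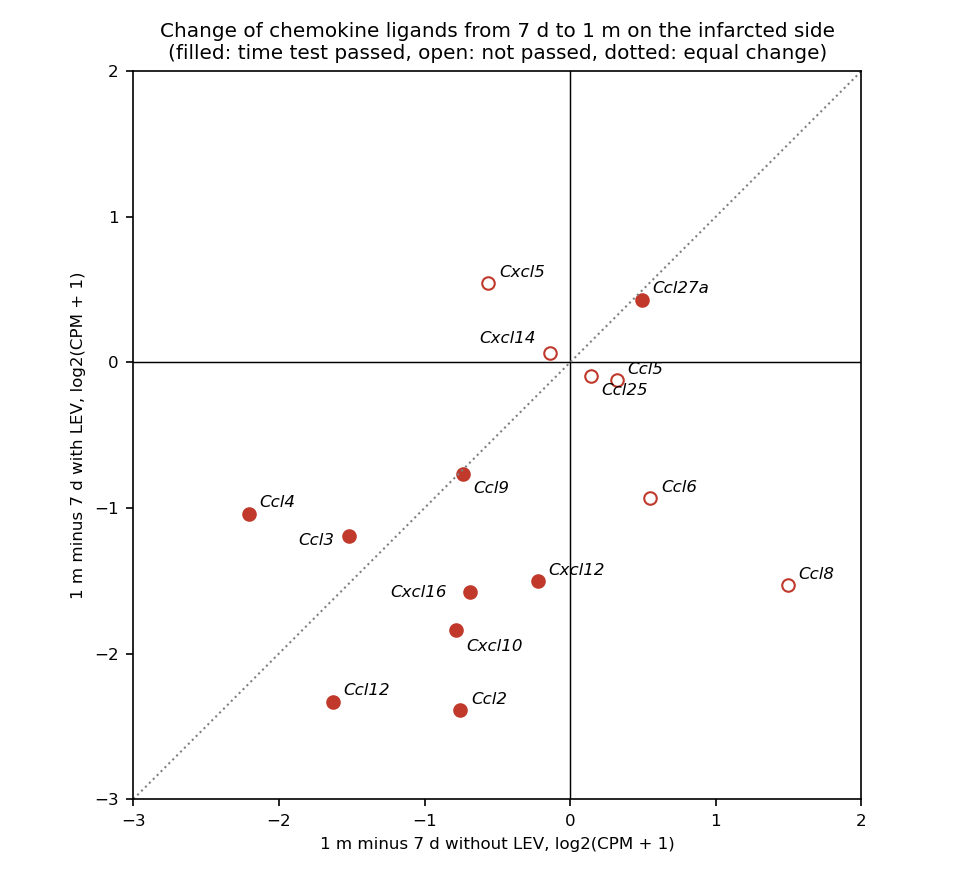
Change from 7 d to 1 m on the infarcted side in log2(CPM + 1), without LEV (horizontal axis) against with LEV (vertical axis), 1 point for each of the 15 chemokine ligands tested, filled where the time test passed. Ccl2 and Ccl12 lie lowest on the vertical axis, Ccl4 lies farthest to the left, and Ccl8 and Ccl6 lie to the right of 0 and below 0.

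On the non-infarcted side, 0 of 10 members changed between 7 d and 1 m (2 at an unadjusted p under 0.05, 0 by edgeR), where 12.4% of all genes were called. The side difference itself was smaller at 1 m than at 7 d in 7 of 15 members tested, where 5.23% of all genes were called that way. These were Ccl2 (-1.89), Ccl12 (-1.67), Ccl4 (-1.60), Cxcl10 (-1.27), Ccl3 (-1.16), Ccl9 (-1.10) and Cxcl12 (-0.51). Under edgeR, Ccl12 and Ccl2 passed (2 of 15). The side ratio of Ccl2 went from 13 (7.39 to 25) at 7 d to 3.56 (2.14 to 6.17) at 1 m, and with LEV from 20.3 (12.1 to 36.8) to 2.41 (1.39 to 4.31). That of Ccl8 went from 8.81 (6.77 to 11.6) to 20.8 (16.0 to 27.4), and with LEV from 9.61 (7.24 to 13) to 1.76 (1.38 to 2.27). Over the same libraries the summed microglia markers of infarcted cortex went from 1364 to 541 CPM without LEV and from 1287 to 543 CPM with it. Those of monocytes and macrophages, 6 of 7 called lower, went from 211 to 85.1 and from 219 to 48.5 CPM, and those of meningeal fibroblasts, 5 of 7 called lower, from 951 to 282 and from 1090 to 106 CPM. The part of these cells in the falls was not tested.

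With LEV, Ccl8, Ccl6 and Cxcl16 were lower in infarcted cortex, and the difference came mostly from 1 m. These were 3 of 17 members tested, where 0.39% of all genes were called lower and no member was called higher. Ccl8 differed by -1.67 ± 0.27 (limma adjusted p = 0.000328), Ccl6 by -1.18 ± 0.20 (adjusted p = 0.000552) and Cxcl16 by -0.79 ± 0.20 (adjusted p = 0.0472). At 1 m Ccl8 was at 88.97 CPM (1239 tags) without and 8.90 CPM (171 tags) with LEV, a ratio of 0.100 (0.0848 to 0.117), while at 7 d the ratio was 0.894 (0.787 to 1.01). The ratio of Ccl6 was 0.244 (0.203 to 0.291) at 1 m and 0.729 (0.626 to 0.848) at 7 d, and that of Cxcl16 was 0.379 (0.291 to 0.492) and 0.778 (0.662 to 0.915). Ccl2 stood in opposite directions, at 0.443 (0.297 to 0.654) at 1 m and 1.73 (1.41 to 2.11) at 7 d. Cxcl16 did not pass with a pseudocount of 0.25, and none of the 3 calls held with TMM scaling, with median centring, without the expression limit, with time left out of the model, or under edgeR with the limit, where no member was called. Under edgeR without the limit 4 were called, Ccl8, Ccl6, Cxcl16 and Cxcl12 (-0.64, adjusted p = 0.00273).

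In single libraries of infarcted cortex at 1 m, 14 of 29 members were at least 2-fold lower with LEV, where 5.2% of all genes were, and 1 was at least 2-fold higher, where 2.05% were. That 1 was Ccl4, with 40 tags against 12. At 7 d the counts were 5 of 30 lower (2.72% of all genes) and 1 higher (2.24%), the latter being Cxcl9 with 22 tags against 4. Counts below 3 tags were set to 3 for these ratios. The 1 m LEV library also had lower summed markers of monocytes and macrophages (48.5 against 85.1 CPM), meningeal fibroblasts (106 against 282 CPM) and T and NK cells (4.01 against 13.9 CPM) than the 1 m library, with microglia markers at 543 against 541 CPM. Pericyte sums were 99.5 against 170 CPM, and neutrophil sums 24.7 against 31.3 CPM at 1 m and 32.0 against 78.4 CPM at 7 d. Over both times, 2 of 4 neutrophil markers tested were called lower with LEV, as were Ms4a7 of macrophages (-1.15, adjusted p = 0.000611) and 1 marker each of pericytes, meningeal fibroblasts and blood, while the neuronal Slc17a7 was called higher (0.74, adjusted p = 0.0292). Their part in these ratios was not tested, and with 1 library each, LEV and the library cannot be told apart.

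On the non-infarcted side, 0 of 10 members were called with LEV (0 at an unadjusted p under 0.05, 0 by edgeR), where 0.00628% of all genes were called. The difference between sides shrank with LEV in 1 of 15 members, Ccl8 (-1.66 ± 0.30, adjusted p = 0.00154), where 0.0739% of genes were called. That call was lost with every alternative tried except a higher expression limit of 5 CPM.

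At 2 m, after withdrawal of LEV, Ccl2 was high on both sides. Its infarcted level of 11.4 CPM was 4.98 times that of 1 m LEV (95% interval 3.58 to 7.06), and its non-infarcted level of 8.74 CPM was 9.18 times (5.73 to 15.5) that of 1 m LEV and 6.65 times (4.01 to 11.7) that of naive cortex. Ccl7, beside it on the chromosome, had 17 tags against 2 at 1 m LEV on the infarcted and 12 against 1 on the non-infarcted side. On the infarcted side Ccl8 was at 1.68 (1.38 to 2.05) and Ccl12 at 0.712 (0.492 to 1.02) times the level of 1 m LEV. On the non-infarcted side Ccl8 was at 0.385 (0.251 to 0.576) and Ccl12 at 0.650 (0.385 to 1.07) times the level of 1 m LEV. The non-infarcted library of 1 m LEV had choroid plexus marker sums of 204 CPM, against 21.2 CPM at 2 m. Their part in these ratios was not tested. The side ratio of Ccl2 was 1.30 (1.05 to 1.63) at 2 m, the lowest of the 5 states.

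Compared with 1 m LEV, 6 of 28 members were at least 2-fold higher at 2 m on the infarcted side, where 6.42% of all genes were, and 3 at least 2-fold lower, where 3.63% were. Cxcl10 was 2.15 times as high (1.30 to 3.63) and Cxcl13 2.80 times (1.25 to 6.87), while Ccl4 was at 0.219 (0.0885 to 0.474) and Ccl3 at 0.438 (0.204 to 0.881). The summed B and plasma cell markers were at 15.1 CPM in the 2 m infarcted library against 0.937 CPM in that of 1 m LEV, and their part in the Cxcl13 ratio was not tested. On the non-infarcted side 3 of 22 were higher and 4 lower, where 7.1% and 4.75% of all genes were. Time after stroke, withdrawal and the library cannot be told apart here, since 2 m has no library without LEV.

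**Figure D4:**
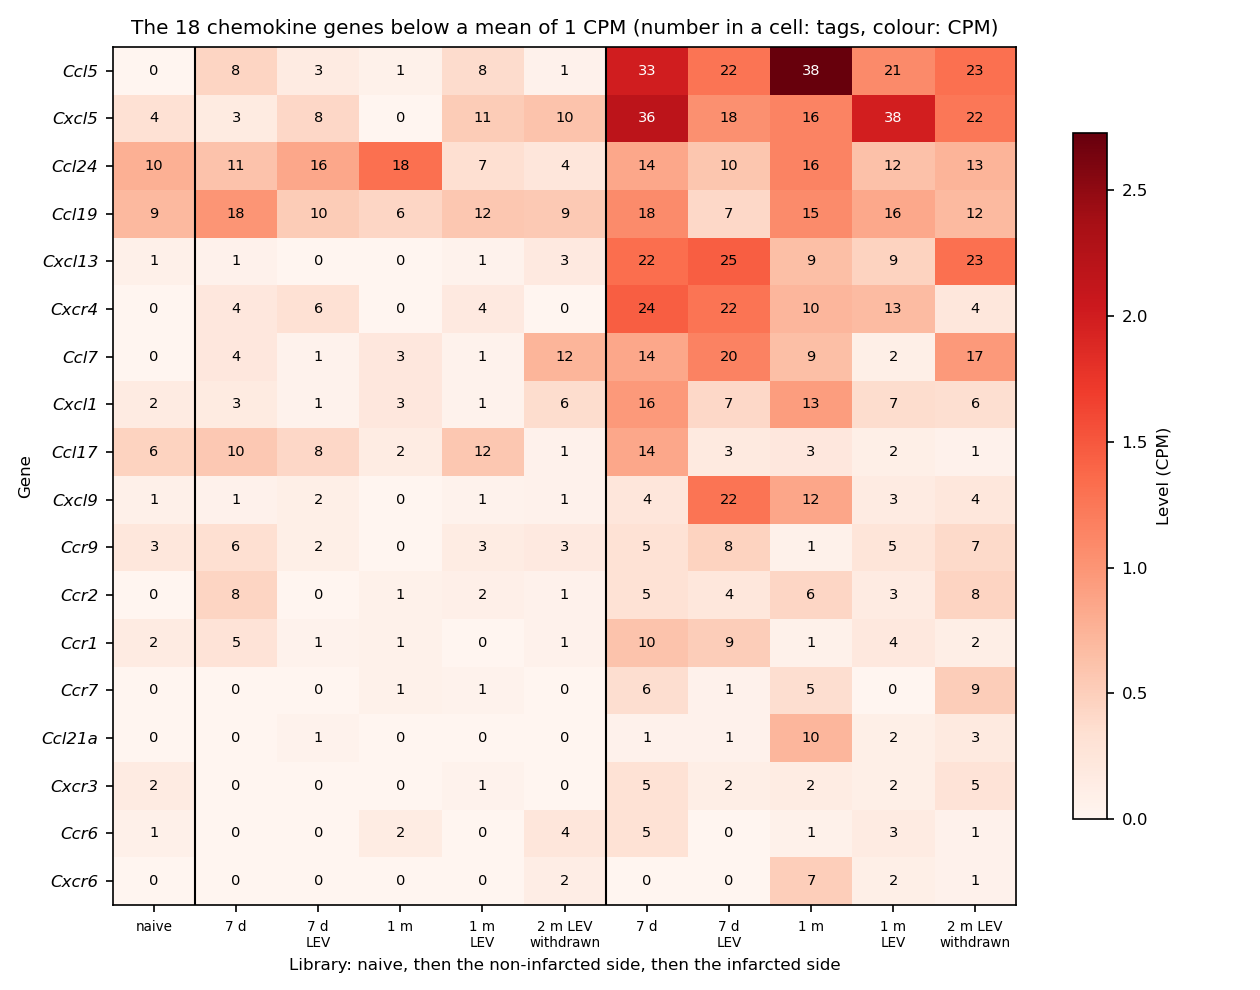
Tags (number in each cell) and level in CPM (colour) of the 18 chemokine genes below a mean of 1 CPM, with the naive library at the left, the non-infarcted side in the middle and the infarcted side at the right. Ccl5, Cxcl5 and Cxcl13 are darker on the infarcted side in all 5 states, and the last 5 rows hold a few tags each.

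Other genes of the pathway were read from lists of related proteins. In a list of atypical receptors, other chemokine classes, Cklf and Cmtm genes, 3 of 10 tested were higher on the infarcted side and none lower, where 6.21% and 0.789% of all genes were. Of these, Cx3cr1 is the microglial fractalkine receptor (0.93, adjusted p = 0.00879). The others were the Cmtm genes Cmtm3 (0.88, adjusted p = 0.0249) and Cmtm6 (0.37, adjusted p = 0.0255). The ligand of Cx3cr1, Cx3cl1, made by neurons, was at 313 to 651 against 353 to 577 CPM (-0.18, adjusted p = 0.456), and Ackr3, a scavenger of Cxcl12, was at 6.4 to 11.4 against 4.43 to 9.25 CPM (0.25, adjusted p = 0.169). The platelet chemokine Pf4 reached 34.9 CPM at 7 d and 27.6 CPM at 7 d LEV on the infarcted side and lay at 3.76 to 7.40 CPM in the other 8 stroke libraries. Its mean side difference did not pass (1.09, adjusted p = 0.136), and that difference was smaller at 1 m than at 7 d (-2.46, adjusted p = 2.60e-13).

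Of the genes that act below chemokine receptors, 10 of 26 were higher and none lower (6.21% and 0.789% of all genes), with a median of 0.22. They included Dock2, a leukocyte exchange factor for Rac (1.40, adjusted p = 0.00675), Rac2 itself (1.60, adjusted p = 0.01), Pik3r5, a subunit of PI3-kinase gamma (1.09, adjusted p = 0.0160), and the kinase Lyn (1.15, adjusted p = 0.0160). The broadly expressed Gnb1, Rac1 and Elmo1 did not pass (-0.23, 0.12 and 0.01). A list tied to the induction of chemokine genes held receptors, transcription factors, cytokines and signalling proteins such as Nfkbia and Myd88. Of its genes, 10 of 19 tested were higher and none lower (again against 6.21% and 0.789%), with a median of 0.62. Among those higher were Tnfrsf1a, a receptor of tumour necrosis factor (1.09, adjusted p = 0.00647), Nfkb2 (0.87, adjusted p = 0.0102), Tlr2 (1.55, adjusted p = 0.0116) and Irf8 (1.56, adjusted p = 0.0146). Irf7, a factor of the interferon response, was also called (1.27, adjusted p = 0.0302), and its side difference was smaller at 1 m (-1.53, adjusted p = 1.84e-06), as was that of Cxcl10. The Cxcl10 call for time held in only 1 of 7 alternatives, and those for Irf7 are not given. A link between the 2 genes was not tested. The cytokines Tnf, Il1b and Il6 lay at or below 1.27, 0.723 and 0.222 CPM.

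Of proteins that cleave or present chemokines, 4 of 13 were higher and none lower, against the same 6.21% and 0.789%. The macrophage elastase Mmp12 was at 1.09 to 72.9 CPM on the infarcted and at most 0.445 CPM on the non-infarcted side (4.0, adjusted p = 0.0102), and it was also lower with LEV in infarcted cortex (-1.90, adjusted p = 2.82e-07). In limma, no gene at all was called for LEV on the infarcted side with TMM factors, without the expression limit or with time left out. That call ended there too. The other alternatives called from 12 genes (median centring) to 240 (edgeR without the limit), and Mmp12 is not given for those. The others were Sdc4, a heparan sulphate proteoglycan (0.45, adjusted p = 0.0177), Mmp2 (1.37, adjusted p = 0.0275) and Mmp14 (1.37, adjusted p = 0.0280). Dpp4, a peptidase that trims Cxcl12 and other chemokines, was at 3.23 to 4.45 against 2.57 to 4.09 CPM (0.12, adjusted p = 0.589).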

How the data were processed

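The authors' deposited table holds CPM for 22377 genes in 11 CAGE libraries. Total RNA was copied with random primers and capped 5′ ends were trapped, per the labels' protocols. The submitters' processing notes list GRCm38, HISAT2 2.0.5, BWA 0.7.17 and, for an unstated use, DESeq2 1.20.0. Every value is a whole number of tags within 0.01, so tags were recovered and library totals are known.

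Samples were grouped by the labels. The design text gives LEV for 2 weeks from 1 month and 1 week of withdrawal, whereas the labels, which were followed, give LEV at 7 d and 2 weeks. The main test was that of limma 3.58.1 with a trend (R 4.3.3), on log2(CPM + 1) of genes whose mean over the compared libraries reached 1 CPM. P-values were adjusted by Benjamini-Hochberg over all genes, and a gene was called at an adjusted p under 0.05. The side was tested with state as a factor, and time and LEV with each other as factor. Fold changes on log2(CPM + 1) understate changes of low genes. Alternatives were a pseudocount of 0.25, limits of none or 5 CPM, median centring, TMM factors, edgeR 4.0.16 (quasi-likelihood, recovered tags), a fit lacking the other factor, and dropping each state in turn. Ratios of single libraries carry exact conditional 95% intervals. Promoters are RefSeq GRCm38.p6, and positions are GENCODE M21. Tests of the side, of infarcted against naive cortex, and of time on the infarcted side and on the side difference were run on simulated data. Those of LEV, and those on the non-infarcted side alone, were not. The outcome is not given here. Ligands with a mean of at least 1 CPM are given in every library or as the range or maximum of a side. Others are given where a library reached 1 CPM, and up to 4 genes by smallest p from each pathway list. Further pathway genes, and low members given with tags, were picked with their values in view. The members and lists were chosen with earlier results of these data known. Some genes are not reported here. Other tools were scipy 1.17.1, numpy 2.4.6, matplotlib 3.10.9 and pandas 2.3.3 under Python 3.11.15.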

Additional observations from a re-analysis of the deposited data

Results flagged for a closer look

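In 28 checks of the 14 tested members on each side, 2 libraries stood far from the other 4 of their side, where chance gives about 1 in 20. Ccl2 in the 2 m non-infarcted library was at 8.741 CPM, and Ccl6 in the 7 d LEV non-infarcted library was at 2.658 CPM.

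The side difference of 7 members differed between 1 m and 7 d, by -1.674 for Ccl12, -1.885 for Ccl2, -1.161 for Ccl3, -1.6 for Ccl4, -1.101 for Ccl9, -1.273 for Cxcl10 and -0.507 for Cxcl12 on the log2(CPM + 1) scale. With LEV, the side difference of Ccl8 differed by -1.658.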

How the results depend on the processing

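The main counts of members called were 12 for the side, 10 for time and 3 for LEV on the infarcted side, and 7 for time and 1 for LEV on the side difference. Leaving out each state gave 1 to 13 for the side, and leaving out the state factor gave 5. A limit of 5 CPM, which tests fewer genes, gave 7 for the side, 6 for time and 2 for time on the side difference. LEV on the infarcted side gave 0 without a limit, with median centring, with TMM factors, with edgeR and with time left out. Time on the side difference gave 4 with a pseudocount of 0.25, 2 with median centring, 3 with TMM factors, 2 with edgeR and 2 with edgeR without a limit. LEV on the side difference gave 0 with a pseudocount of 0.25, without a limit, with median centring, with TMM factors, with edgeR with or without a limit, and with time left out. The cause was not tested. Neither naive comparison, nor time or LEV on the non-infarcted side, gave any call under the alternatives run, and no called value changed sign. The labels carry no replicate numbers, so the pairing used is that of the sides within a state. Counts of a few tags limit the receptors described.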
